A study of Rattus norvegicus with 9 samples.

Results

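The members are the mitochondrial respiratory chain genes of the rat, found in a table of read counts per gene symbol by their symbols alone. A row was a member where its symbol starts with Nduf, Uqcr, Atp5 or Mt-, starts with Cox followed by a digit from 4 to 8, or is Sdha, Sdhb, Sdhc, Sdhd or Cyc1. The rule used no measured value and found 103 of 28343 rows. They comprise 33 nuclear-encoded complex I subunits, 7 complex I assembly factors, the 4 genes of complex II, 8 nuclear-encoded genes of complex III, 17 of complex IV and 17 of complex V. Another 13 are encoded by mitochondrial DNA (mtDNA), of which 7 belong to complex I, 1 to complex III, 3 to complex IV and 2 to complex V. The other 4 rows found by the rule carry symbols of copies or pseudogenes (Ndufv3-ps1, Ndufb4l1, Atp5hl1 and Cox6c1) and are left out of the counts per complex. The groups follow symbols. The complex I subunits thus include Ndufa4 and Ndufa4l2, which are associated with complex IV. Likewise, complex IV includes the supercomplex factor Cox7a2l, and complex V includes the assembly factors Atp5s and Atp5sl.

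The libraries are RNA-seq of cells sorted for CD11b from whole retinas of Dark Agouti rats, an inbred strain, and the question was how the transcriptome of retinal microglia differs early in diabetes. The 4 diabetic rats had received streptozotocin, which destroys the insulin-producing cells of the pancreas, at a dose of 55 mg/kg, following a fast of 12 hours at 8 to 10 weeks of age, and had raised blood glucose. They were given 2 units of insulin (Protaphane) whenever blood glucose exceeded 30 mmol/l. The 5 control rats had received citrate buffer under the same fasting, and the retinas of both groups were taken 4 weeks after the injection. The labels name no transgene or deletion in either group. CD11b is carried by blood-derived and border myeloid cells as well as by microglia, so the gate alone does not separate them. The RNA went through SmartSeq preamplification, with no molecular identifiers named, so a count is a read and not a molecule. In such bulk samples a change in the number of cells of a type and a change in RNA per cell cannot be told apart.

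Total counts ran from 6228756 in diabetic library 4, the shallowest, to 11332823 in control library 3. The microglia list (11 genes, among them Cx3cr1, P2ry12 and Csf1r) held 2.82% to 3.82% of counts in control libraries and 3.41% to 3.68% in diabetic libraries. Photoreceptor genes held 0.0245% to 0.1315% in controls and 0.0374% to 0.198% in diabetic libraries, and blood and border myeloid genes held 0.0311% to 0.0706% and 0.0631% to 0.141%. Across all 11748 genes with enough counts to test, edgeR's quasi-likelihood test called 8 at a Benjamini-Hochberg adjusted p below 0.05 (0.0681%), and 2226 had an unadjusted p below 0.05 (18.9%). Over all genes tested the log2 fold changes had a median of 0.0017, so the members are read against a centre close to 0.

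The respiratory chain sits in the inner mitochondrial membrane. Complex I takes electrons from NADH and complex II from succinate, coenzyme Q carries them to complex III, cytochrome c carries them on to complex IV, and complex IV passes them to oxygen. Complexes I, III and IV pump protons, and complex V, the ATP synthase, uses the proton gradient to make ATP. Complex II is encoded by nuclear genes alone, whereas the other complexes combine subunits from both genomes, so that their assembly draws on transcripts made in the nucleus and in the mitochondrion. Microglia, the resident macrophages of the retina, use oxidative phosphorylation when they survey the tissue and can shift towards glycolysis when activated.

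The nuclear genes of the chain are known as targets of the transcription factors NRF1, GABPA (an ETS factor, NRF2) and YY1. Promoters of 300 bases, from 250 before to 50 after the transcription start, were taken from RefSeq (build GRCr8) for 75 of the 86 nuclear-encoded chain genes, and 4 are shown for members that the results below turn on. They are Uqcrq, which had the smallest p among the members, Ndufa6 and Cox4i1, which had some of the next smallest, and Uqcrc2, which was the one member lower at an unadjusted p below 0.05. Each is printed 5′ to 3′ on the strand of its gene, and capitals mark a match to one of the searched motifs. The Uqcrq window is chr10:38089929-38090228 (minus strand), that of Ndufa6 is chr7:115750268-115750567 (minus strand), that of Cox4i1 is chr19:65630133-65630432 (plus strand) and that of Uqcrc2 is chr1:184598990-184599289 (plus strand).
Uqcrq: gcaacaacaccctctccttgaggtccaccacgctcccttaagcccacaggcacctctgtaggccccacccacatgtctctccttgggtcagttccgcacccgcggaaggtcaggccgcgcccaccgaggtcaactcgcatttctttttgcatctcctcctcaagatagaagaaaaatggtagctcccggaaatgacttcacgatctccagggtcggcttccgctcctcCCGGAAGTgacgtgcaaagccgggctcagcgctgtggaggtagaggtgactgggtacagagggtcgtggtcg
Ndufa6: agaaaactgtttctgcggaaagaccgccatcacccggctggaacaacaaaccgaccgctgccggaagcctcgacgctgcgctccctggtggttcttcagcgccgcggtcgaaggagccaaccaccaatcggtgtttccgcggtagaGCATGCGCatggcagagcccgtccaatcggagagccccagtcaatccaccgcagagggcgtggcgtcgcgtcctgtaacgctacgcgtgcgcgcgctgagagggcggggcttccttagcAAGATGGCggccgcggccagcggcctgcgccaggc
Cox4i1: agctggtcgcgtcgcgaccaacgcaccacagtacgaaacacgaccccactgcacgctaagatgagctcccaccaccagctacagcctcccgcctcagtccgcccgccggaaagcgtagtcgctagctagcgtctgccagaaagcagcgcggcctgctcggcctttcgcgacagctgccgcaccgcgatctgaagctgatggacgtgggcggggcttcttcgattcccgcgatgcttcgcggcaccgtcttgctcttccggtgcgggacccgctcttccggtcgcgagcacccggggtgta
Uqcrc2: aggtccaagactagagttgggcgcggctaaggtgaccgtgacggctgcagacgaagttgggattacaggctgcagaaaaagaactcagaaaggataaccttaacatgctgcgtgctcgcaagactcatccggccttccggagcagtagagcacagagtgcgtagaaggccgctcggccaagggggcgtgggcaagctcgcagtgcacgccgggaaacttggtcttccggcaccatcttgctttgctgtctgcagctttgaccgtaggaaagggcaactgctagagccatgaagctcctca
The motifs searched on both strands were the NRF1 core GCGCATGC, a looser form GCGCNTGC that includes it, the ETS core CCGGAAGT and the YY1 core AAGATGGC. The Uqcrq window held the ETS core 22 bases before the start. The Ndufa6 window held the NRF1 core 104 bases before the start and the YY1 core 15 bases after it, and the windows of Cox4i1 and Uqcrc2 held none of these letters.

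Among the 75 promoters the NRF1 core was found in 11 (14.7%), against 731 of all 27457 promoters of the table (2.66%). The looser form was found in 24 (32.0%) against 9.84%, the ETS core in 8 (10.7%) against 4.01% and the YY1 core in 14 (18.7%) against 3.44%. At least 1 of the 4 was found in 41 (54.7%), against 15.7% of all promoters. The median GC content was 57.0% in the members' windows and 52.3% in all windows, so the motifs and base composition differ together. Of the 34 matched promoters whose genes were higher at an unadjusted p below 0.05, 22 (64.7%) held a motif, and of the 33 others tested 17 (51.5%) did. By motif, the NRF1 core was in 14.7% and 15.2%, and its looser form in 38.2% and 30.3%. The ETS core was in 14.7% and 9.09%, and the YY1 core in 20.6% and 18.2%. These differences were not tested. These matches describe letters in the windows and were not set against binding.

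The chain as a whole tended to higher values in diabetic libraries, unevenly between complexes, and no single member passed the test. Of the 103 rows, 91 had enough counts to test, and 0 of these had an adjusted p below 0.05 in edgeR's test, where 0.0681% of all genes tested did. At an adjusted p below 0.1, 7 members were found, namely Uqcrq, Ndufc2, Cox4i1, Cox6a1, Atp5l, Cox7c and Ndufa6, where 1.90% of all genes tested were. All 7 were higher in diabetic libraries, as were 1.05% of all genes tested. At an unadjusted p below 0.05, 44 of the 91 were higher and 1 was lower, against 8.94% and 10.0% of all genes tested. The median log2 fold change of diabetic over control was 0.42 over the 91, with 74 positive and 17 negative, where 50.3% of all genes tested were positive. In 23 members every diabetic library lay above every control library, which held for 4.27% of all genes tested, and in 0 members every diabetic library lay below, which held for 4.16%. DESeq2's Wald test on the same counts called 21 members at an adjusted p below 0.05, all higher, where it called 4.95% of all genes and 2.44% as higher. Of 92 members listed in the authors' deposited table, 21 had an adjusted p below 0.05, all higher. In the authors' deposited table as a whole, an adjusted p below 0.05 was given for 2.10% of 12069 genes, and 1.92% were higher. The medians in the authors' deposited table were 0.53 for the members and 0.12 for all genes, so its values are not centred at 0. They lay close to those fitted here without normalisation factors. For Cyc1, Sdha and Atp5c1 the authors gave 0.146, 0.113 and 0.105, and that fit gave 0.147, 0.113 and 0.106.

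Much of the size of these differences came with diabetic library 4. It was the highest of the 9 libraries in 69 of the 91 members (75.8%), and in 16.9% of all genes tested. Without it the members' median log2 fold change was 0.24 instead of 0.42, 70 of 92 were positive (49.9% of all genes), 30 were higher at an unadjusted p below 0.05 (5.90% of all genes) and 0 were lower (6.88% of all genes). Without it edgeR called 0 of 11958 genes at an adjusted p below 0.05, with 1528 at an unadjusted p below 0.05. Genes of the cytoplasmic ribosome (Rpl and Rps symbols) are given beside this: they held 0.133% to 0.152% of counts in controls and 0.168% to 0.218% in diabetic libraries, with diabetic 4 the highest. Of the 53 of them tested, 47 were positive, with a median log2 fold change of 0.35, and 0.27 without diabetic 4. At an unadjusted p below 0.05, 25 were higher (8.94% of all genes tested). In 13 every diabetic library lay above every control (4.27% of all genes tested). The tendency to higher values was therefore not particular to the chain. Transcript lengths were known for 62.1% of members. Among genes with negative values, those of Atp5b, Uqcrc1 and Uqcrc2 were 1773, 1615 and 1824 bases. Among positive ones, those of Mt-atp8, Ndufa6 and Ndufc2 were 204, 517 and 560 bases, but those of Uqcrq and Mt-co1 were 1494 and 1545. The part of library 4, of depth, of RNA quality and of transcript length in the members' values was not tested.

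**Figure D1:**
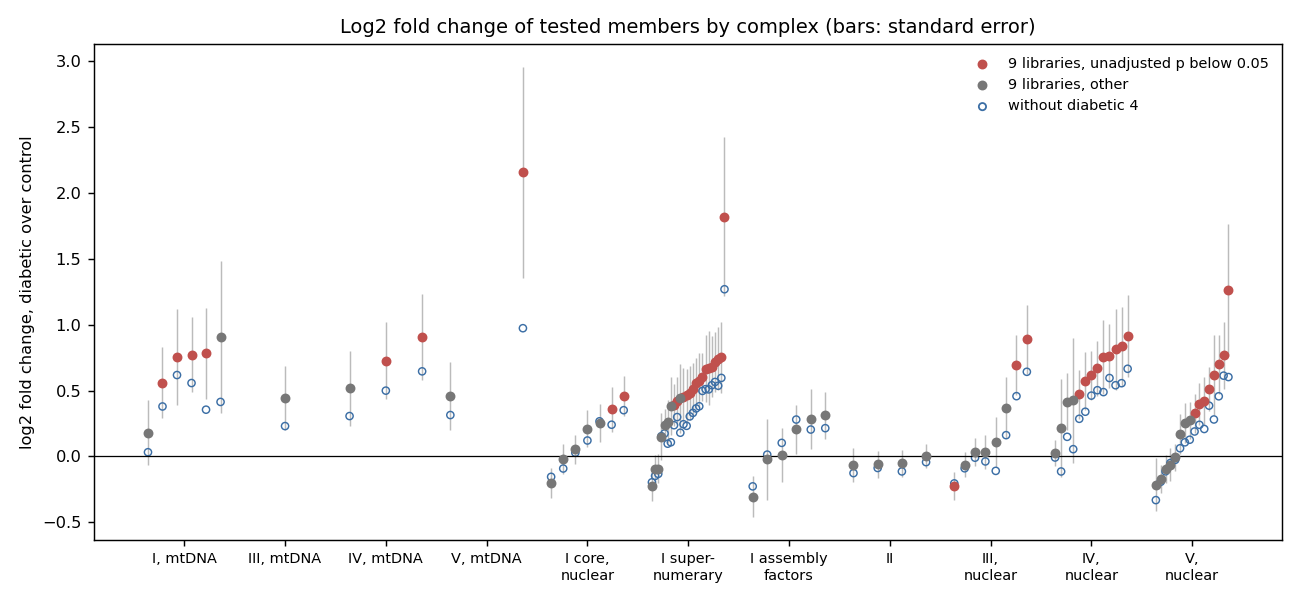
Log2 fold change of diabetic over control (y axis) for each tested member, ordered by size within its complex and genome (x axis), with bars for the standard error. Filled points use all 9 libraries, red where the unadjusted p is below 0.05, and open circles leave out diabetic library 4. Complex II sits close to 0, the nuclear-encoded genes of complex IV lie above 0 with a median of 0.61, and the open circles of the mtDNA-encoded genes all lie closer to 0.

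The mtDNA-encoded genes carried more of the members' reads than the nuclear-encoded ones and had the higher median log2 fold change, 0.74 against 0.38, or 0.40 against 0.21 without diabetic 4, a difference that was not tested. As a share of all counts they made up 0.688, 0.817, 0.540, 0.467 and 0.428% in controls and 0.941, 0.957, 1.25 and 0.578% in diabetic libraries. Here and below, values per library are given in the order control 1, 3, 4, 5 and 6, then diabetic 1, 2, 4 and 5. The means were 0.588% ± 0.162 (SD, n = 5) and 0.931% ± 0.274 (SD, n = 4), a log2 ratio of 0.66. Diabetic libraries 1, 2 and 4 lay above every control, and diabetic 5 lay within the control range. The nuclear-encoded chain genes made up 0.545, 0.552, 0.470, 0.483 and 0.423% in controls and 0.607, 0.539, 0.643 and 0.505% in diabetic libraries. Their means were 0.495% ± 0.054 and 0.574% ± 0.063, a log2 ratio of 0.21, and the groups overlapped. All shares of counts were taken from raw counts and totals, without scaling factors (TMM). These factors were 0.839 to 1.03 in controls and 1.01 to 1.07 in diabetic libraries. Log2 ratios of shares are therefore not on the scale of the fitted log2 fold changes. The ratio of mtDNA-encoded to nuclear-encoded counts was 1.17 ± 0.21 (SD) in controls and 1.60 ± 0.34 in diabetic libraries, again with diabetic 5, at 1.14, inside the control range of 0.967 to 1.48. Without diabetic 4 the mean mtDNA share of the diabetic libraries was 0.825%.

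**Figure D2:**
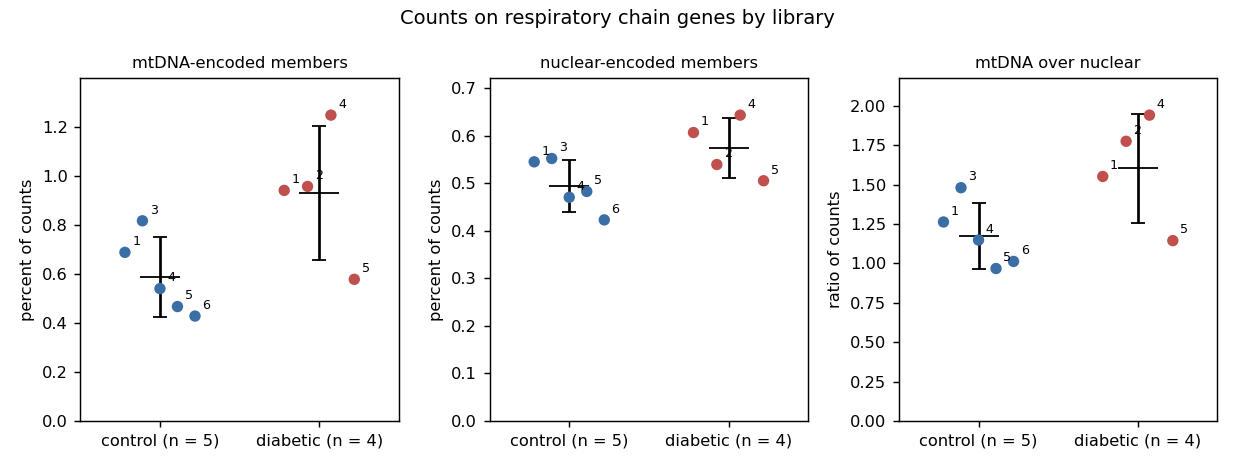
Share of all counts on mtDNA-encoded members and on nuclear-encoded members (percent), and the ratio of the 2 sums, for each library (points, numbered as in the labels) with the group mean and SD (bars). Diabetic libraries 1, 2 and 4 exceed all controls in the mtDNA share, while diabetic library 5 lies among the controls.

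All 12 mtDNA-encoded genes tested had positive log2 fold changes, from 0.18 for Mt-nd5 to 2.16 for Mt-atp8, with a median of 0.74. Of these, 7 had an unadjusted p below 0.05, where 8.94% of all genes tested were higher at that level, and 0 an adjusted p below 0.05 or 0.1 in edgeR's test. Diabetic library 4 was the highest library for all 12, and without it the median was 0.40, with 12 of 12 positive and 4 at an unadjusted p below 0.05 (5.90% of all genes). These genes sit together on a circular genome and are read from long joint transcripts, so they are not independent of one another. Nuclear copies of mitochondrial DNA can share their reads.

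Mt-co1, Mt-co2 and Mt-cox3 encode the catalytic core of complex IV, with its copper and haem centres held by the first and second of them. Mt-co1 was at 2215, 2294, 1630.0, 1464 and 1684 normalised CPM in controls and 2706, 2729, 3748 and 1458 in diabetic libraries. edgeR put Mt-co1 at a log2 difference of 0.52 ± 0.29 (SE; adjusted p of 0.297), and diabetic 5 was the lowest of all 9 libraries. Mt-co2 was at 864, 1068, 839, 636 and 655 normalised CPM in controls and 1255, 1374, 1933 and 817 in diabetic libraries. For Mt-co2 the fitted log2 fold change came to 0.73 ± 0.29 (SE; adjusted p of 0.164), with diabetic 1, 2 and 4 above all controls. Mt-cox3 was at 396, 505, 426, 314 and 266 normalised CPM in controls and 635, 685, 1073 and 471 in diabetic libraries. On the log2 scale Mt-cox3 differed by 0.91 ± 0.33 (SE; adjusted p of 0.124), the smallest adjusted p among the mtDNA-encoded genes, and diabetic 5 again lay among the controls.

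Of the 7 mtDNA-encoded complex I genes, which form its membrane arm, 6 could be tested. Mt-nd2 was at 280.2, 288, 245, 176 and 216 normalised CPM in controls and 379, 431, 584 and 255 in diabetic libraries. The log2 ratio fitted for Mt-nd2 was 0.77 ± 0.28 (SE; adjusted p of 0.126). Mt-nd1 had a log2 difference of 0.56 ± 0.27 (SE; adjusted p of 0.237), with 246 to 478 normalised CPM in controls and 329 to 734 in diabetic libraries. In both genes diabetic 1, 2 and 4 lay above all controls and diabetic 5 within them. Mt-nd5 was at 175, 216, 133, 95.4 and 154 normalised CPM in controls and 173, 179, 227 and 123 in diabetic libraries. Mt-nd5 had a fitted log2 ratio of 0.18 ± 0.24 (SE; adjusted p of 0.693), and the groups overlapped. Mt-nd6, the only one of the 13 encoded on the other strand, was at 17.7, 14.5, 17.97, 11.9 and 17.9 normalised CPM in controls and 18.6, 26.5, 49.4 and 16.3 in diabetic libraries. edgeR put Mt-nd6 at a log2 difference of 0.78 ± 0.35 (SE; adjusted p of 0.206), and 0.35 without diabetic 4. Its 3′ end overlaps Mt-nd5 by 23 bases on the opposite strand (MT:13543-13565 on Rnor_6.0). Mt-nd3 and Mt-nd4l were counted at 7 to 50 reads per library, and their log2 fold changes were 0.91 ± 0.58 (SE; adjusted p of 0.362) and 0.75 ± 0.37 (SE; adjusted p of 0.242).

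Mt-nd4 (MT:10160-11537 on Rnor_6.0, 1378 bases) was at 0 counts in all 9 libraries, which allows 0.0355 CPM over the libraries together (3 counts). In the deposited transcript assemblies, unnamed transcripts on the minus strand covered at least 90% of that span in 5 of 9 libraries (control 3, 4 and 6, diabetic 2 and 4). The count of 0 is therefore given as the table has it and no level is read from it. Such counts depend on how the authors assigned reads, and neither the program nor its use of strand is stated in the labels.

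Mt-cytb, the mtDNA-encoded subunit of complex III where coenzyme Q is oxidised, was at 716, 819.8, 624, 481 and 526 normalised CPM in controls and 836, 824, 1215 and 569 in diabetic libraries. For Mt-cytb the fitted log2 fold change came to 0.44 ± 0.24 (SE; adjusted p of 0.297), with diabetic 1 and 2 just above the highest control, diabetic 4 further above and diabetic 5 among the controls. Mt-atp6, which forms the proton channel of the ATP synthase with the c-ring, was at 1641, 2347, 1516, 1147 and 1235 normalised CPM in controls and 2218, 2144, 2776 and 1523 in diabetic libraries. On the log2 scale Mt-atp6 differed by 0.46 ± 0.26 (SE; adjusted p of 0.307), and only diabetic 4 exceeded control 3. Mt-atp8, a small membrane subunit, was at 2.74, 4.43, 3.66, 2.79 and 3.36 normalised CPM in controls and 7.51, 6.85, 41.9 and 5.71 in diabetic libraries. All 4 diabetic libraries lay above all controls, and diabetic 4 lay far above the other 3. The log2 fold change was 2.16 ± 0.80 (SE; adjusted p of 0.13) with all libraries and 0.97 without diabetic 4. Mt-atp8 (MT:7758-7961, 204 bases) overlaps Mt-atp6 (MT:7919-8599) by 43 bases and both are carried on 1 transcript, so the split of reads between them depends on the counting.

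**Figure D3:**
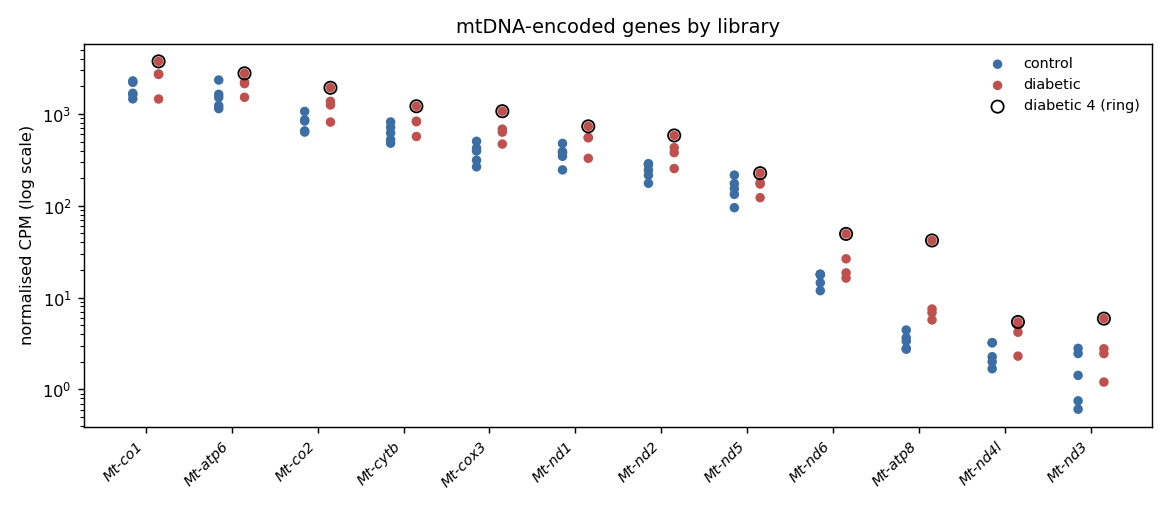
Normalised CPM (log axis) of the 12 tested mtDNA-encoded genes in each of 5 control (blue) and 4 diabetic (red) libraries, ordered by the control mean. Diabetic library 4 (ringed) is the highest library in all 12, and the gap is widest for Mt-atp8, at 41.9 against 5.71 to 7.51 in the other diabetic libraries.

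Complex I, the NADH dehydrogenase, is built around core subunits that hold the flavin, the iron-sulphur clusters and the proton pumps, with many supernumerary subunits arranged around them. This split was made after the values were seen. Among 24 supernumerary Nduf genes tested, 21 had positive log2 fold changes, 16 of them at an unadjusted p below 0.05 (8.94% of all genes tested), with a median of 0.47. In 10 every diabetic library exceeded every control (4.27% of all genes tested). The 24 include Ndufa4, which is kept here by symbol and is associated with complex IV. Among the 7 nuclear-encoded core genes, 5 were positive, 2 of them at an unadjusted p below 0.05, with a median of 0.21, and in 1 every diabetic library exceeded every control. Without diabetic 4 the medians were 0.30 and 0.12. The difference between the core and the supernumerary genes was not tested.

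Ndufc2, a supernumerary subunit of the membrane arm (chromosome 1:162369801-162376023 on Rnor_6.0), was at 28.2, 32.8, 27.8, 23.8 and 24.1 normalised CPM in controls and 40.7, 40.4, 51.02 and 34.8 in diabetic libraries. Every diabetic library lay above every control library. The log2 ratio fitted for Ndufc2 was 0.61 ± 0.18 (SE; adjusted p of 0.0895). Ndufa6, a supernumerary subunit of the peripheral arm that carries an LYR motif (chromosome 7:123583062-123586919 on Rnor_6.0), was at 14.5, 13.5, 17.1, 13.9 and 10.8 normalised CPM in controls and 24.5, 19.1, 30.1 and 18.5 in diabetic libraries. The groups did not overlap here either, and the log2 fold change was 0.72 ± 0.23 (SE; adjusted p of 0.0991). Ndufa2 was at 14.9, 11.8, 14.4, 11.9 and 12.5 normalised CPM in controls and 22.6, 16.2, 31.1 and 18.2 in diabetic libraries. Ndufa2 had a fitted log2 ratio of 0.74 ± 0.24 (SE; adjusted p of 0.1), without overlap of the groups. Ndufb8 and Ndufb9, the nuclear-encoded complex I genes with the most counts per kb of transcript among those with a known length, had log2 fold changes of 0.47 and 0.39, with adjusted p values of 0.192 and 0.167 in edgeR's test. The largest log2 fold change among nuclear-encoded members, 1.82 ± 0.61 (SE), belonged to Ndufs5, which rests on 3 to 36 reads per library. Ndufa2 and Ndufs5 were named after their values were seen.

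The nuclear-encoded core genes lay on both sides of 0, as did some supernumerary ones. Ndufs1, the largest core subunit, which holds several iron-sulphur clusters, was at 106, 121, 100.1, 95.5 and 90.5 normalised CPM in controls and 92.2, 93.7, 80.2 and 90.4 in diabetic libraries. edgeR put Ndufs1 at a log2 difference of -0.20 ± 0.11 (SE; adjusted p of 0.306), with 2 diabetic libraries below all controls. Ndufa10 was at 45.2, 43.1, 35.7, 42.1 and 42.1 normalised CPM in controls and 39.3, 34.1, 33.8 and 35.5 in diabetic libraries. For Ndufa10 the fitted log2 fold change came to -0.22 ± 0.12 (SE; adjusted p of 0.282), with 3 diabetic libraries below all controls. Ndufs7, the core subunit with the last iron-sulphur cluster before coenzyme Q, was at 46.97, 38.4, 37.2, 40.6 and 38.5 normalised CPM in controls and 54.6, 50.5, 67.9 and 49.3 in diabetic libraries. It was the core gene in which the groups did not overlap, and its log2 fold change was 0.46 ± 0.15 (SE; adjusted p of 0.103). Ndufv1, at a log2 fold change of 0.05, was close to 0. The core genes Ndufs7 and Ndufv1 were likewise named after their values were seen.

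The complex I assembly factors of the Ndufaf family, which help to build the complex but are not part of it, had a median log2 fold change of 0.11 over 6 tested, with 4 positive and 0 at an unadjusted p below 0.05. Ndufaf3 and Ndufaf5 were at log2 differences of 0.31 ± 0.18 (SE; adjusted p of 0.309) and 0.28 ± 0.23 (SE; adjusted p of 0.476). Ndufaf7, an arginine methyltransferase, was at 34.7, 32.9, 34.6, 28.2 and 26.1 normalised CPM in controls and 23.8, 30.1, 20.9 and 26.3 in diabetic libraries. On the log2 scale Ndufaf7 differed by -0.31 ± 0.16 (SE; adjusted p of 0.265), and 2 diabetic libraries lay below all controls. Ndufaf1 was at -0.02 ± 0.31 (SE). Ndufaf2 had 1 to 9 reads per library and was not tested.

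Complex II, the succinate dehydrogenase, which also belongs to the TCA cycle, lay close to 0. Its 4 genes had log2 fold changes from -0.06 to 0.00 with a median of -0.06, and the smallest adjusted p was 0.76. Sdha, the flavoprotein, was at 260.0, 239, 235, 239 and 234 normalised CPM in controls and 251, 209, 264 and 243 in diabetic libraries. Sdhb, the iron-sulphur subunit, was at 237, 216, 242, 247 and 264 normalised CPM in controls and 246, 221, 261 and 203 in diabetic libraries. The membrane anchors Sdhc and Sdhd were at 99.2 to 119.7 and 126 to 167 in controls, and at 87.3 to 111 and 109 to 155 in diabetic libraries. In all 4 genes the groups overlapped, and the log2 fold changes carried standard errors of 0.09 to 0.13. The direction of such small values depends on the scaling of the libraries: without normalisation factors, a setting that moves the median of all genes to 0.12, the complex II median was 0.06.

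**Figure D4:**
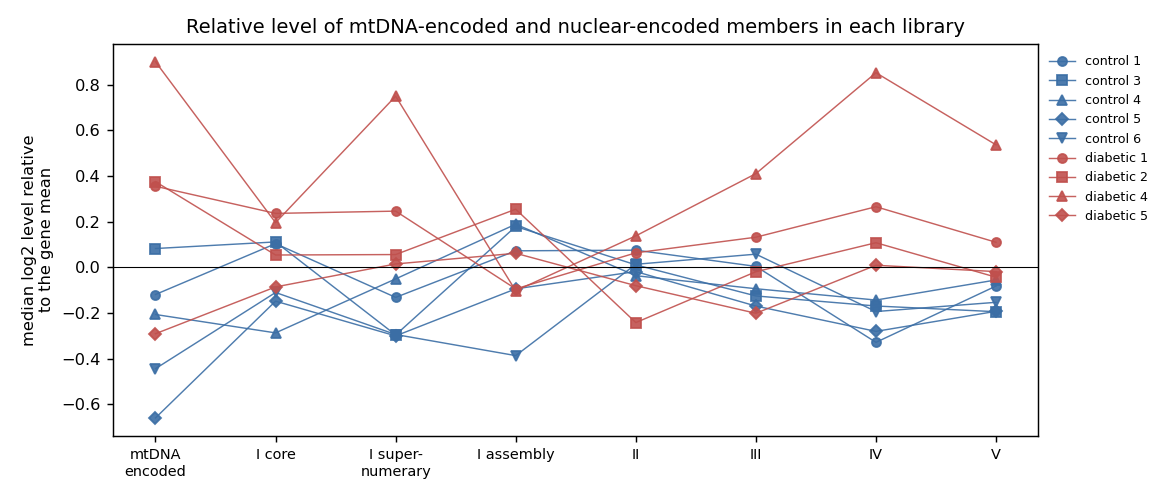
Median log2 level of the members of each group relative to their own mean over 9 libraries (y axis), for mtDNA-encoded members and for the nuclear-encoded groups (x axis). Lines are libraries, blue for control and red for diabetic. Every diabetic line lies above every control line in complex IV, in the complex I supernumerary genes and, narrowly (-0.0436 against -0.0556), in complex V. In complex II they mix, and diabetic 4 is the highest line in 6 of the 8 groups.

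Complex III, the cytochrome bc1 complex, was split between its members. Of 8 nuclear-encoded genes, 6 had positive log2 fold changes, with a median of 0.07, and -0.02 without diabetic 4. Uqcrq, a small ubiquinone-binding subunit (chromosome 10:38779132-38782419 on Rnor_6.0), was at 20.9, 16.4, 23.7, 22.8 and 18.3 normalised CPM in controls and 33.7, 34.4, 56.1 and 27.5 in diabetic libraries. Every diabetic library lay above every control library. The log2 ratio fitted for Uqcrq was 0.89 ± 0.26 (SE; adjusted p of 0.0895), and 0.64 without diabetic 4. Uqcr10, another small subunit, was at 32.2, 27.3, 33.7, 31.6 and 28.5 normalised CPM in controls and 50.2, 36.9, 72.9 and 39.2 in diabetic libraries. The groups did not overlap, and its log2 fold change was 0.70 ± 0.23 (SE; adjusted p of 0.102). The limit given below for copies of small genes applies to it.

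Cyc1, the cytochrome c1 that passes electrons to cytochrome c, was at 147, 150.3, 119, 126 and 146 normalised CPM in controls and 143, 147, 153 and 121 in diabetic libraries. Cyc1 had a fitted log2 ratio of 0.03 ± 0.11 (SE; adjusted p of 0.888). Uqcrc1, a core protein on the matrix side, was at 276, 266, 246, 241 and 262 normalised CPM in controls and 274, 235, 260.4 and 219 in diabetic libraries. edgeR put Uqcrc1 at a log2 difference of -0.06 ± 0.09 (SE; adjusted p of 0.723), and diabetic 2 and 5 lay below all controls. Uqcrc2, its partner (chromosome 1:190555177-190585734 on Rnor_6.0), was at 120.2, 144, 129, 116 and 134 normalised CPM in controls and 114, 118, 106 and 103 in diabetic libraries. Diabetic 1, 4 and 5 lay below all controls and diabetic 2 within them. For Uqcrc2 the fitted log2 fold change came to -0.22 ± 0.11 (SE; adjusted p of 0.23), and the unadjusted p of 0.034 was the only one below 0.05 among the 17 members with negative values.

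Complex IV, the cytochrome c oxidase, was the nuclear-encoded group in which no tested gene had a negative value. All 13 genes tested had positive log2 fold changes, 9 of them at an unadjusted p below 0.05 (8.94% of all genes tested) and 3 at an adjusted p below 0.1 (1.05%), with a median of 0.61, and 0.47 without diabetic 4. In 5 of the 13 every diabetic library exceeded every control, as in 4.27% of all genes tested. Their summed share of counts was 0.0315, 0.0300, 0.0317, 0.0293 and 0.0259% in controls and 0.0445, 0.0408, 0.0611 and 0.0401% in diabetic libraries. The groups did not overlap, and the means were 0.0297% ± 0.0023 (SD, n = 5) and 0.0466% ± 0.0098 (SD, n = 4). These shares, too, were taken without TMM factors.

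Cox4i1, the ubiquitous form of the subunit where ATP acts on the enzyme, was at 34.97, 44.5, 42.9, 37.6 and 36.005 normalised CPM in controls and 56.5, 47.004, 78.6 and 58.6 in diabetic libraries. On the log2 scale Cox4i1 differed by 0.61 ± 0.19 (SE; adjusted p of 0.0927). Cox6a1 was at 48.6, 38.5, 65.3, 50.2 and 49.9 normalised CPM in controls and 71.6, 67.03, 107 and 76.1 in diabetic libraries. The log2 ratio fitted for Cox6a1 was 0.67 ± 0.21 (SE; adjusted p of 0.0991). In both genes all diabetic libraries lay above all controls. Cox7c, a small membrane subunit, was at 19.2, 18.3, 26.7, 16.2 and 20.003 normalised CPM in controls and 32.3, 35.05, 45.3 and 23.6 in diabetic libraries. Cox7c had a fitted log2 ratio of 0.76 ± 0.24 (SE; adjusted p of 0.0991), with diabetic 5 within the control range. Cox8a was at 8.88, 5.99, 10.3, 8.25 and 13.4 normalised CPM in controls and 15.7, 14.7, 26.5 and 14.01 in diabetic libraries. edgeR put Cox8a at a log2 difference of 0.92 ± 0.31 (SE; adjusted p of 0.112), and the groups did not overlap. Cox6b1, which faces the intermembrane space at the cytochrome c side, was at 16.2, 10.1, 18.2, 20.5 and 19.2 normalised CPM in controls and 25.1, 24.6, 46.4 and 24.3 in diabetic libraries. For Cox6b1 the fitted log2 fold change came to 0.84 ± 0.30 (SE; adjusted p of 0.123). Cox7a2 and Cox7b, with 3 of 4 diabetic libraries above all controls each, had log2 differences of 0.81 ± 0.31 (SE; adjusted p of 0.142) and 0.75 ± 0.28 (SE; adjusted p of 0.132). Cox6b1 and Cox7a2 carry the limit given below for copies of small genes. Cox7c was named after its values were seen. Cox7a2l, a factor of supercomplex assembly kept here by its symbol, lay near 0 at a log2 fold change of 0.03.

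Several complex IV subunits have tissue-restricted forms, which were looked up whatever their values. Cox4i2, a form known from lung and from oxygen-starved cells, was at 0.861 to 1.61 normalised CPM in controls and 0.601 to 2.71 in diabetic libraries, and its fitted log2 ratio was 0.42 ± 0.48 (SE; adjusted p of 0.626). Cox6b2, known from testis, was at 1.42 to 2.57 and 1.43 to 3.83, and its fitted log2 ratio was 0.21 ± 0.37 (SE; adjusted p of 0.769), or -0.11 without diabetic 4. The muscle form Cox6a2 had 1 to 13 reads per library and was not tested. Cox7b2, Cox8b and Cox8c were at 0 counts in all 9 libraries, which allows 0.0355 CPM over the libraries together. No row of counts carried the symbol Cox7a1, so that form could not be looked up. Ndufa4, named for complex I but bound to complex IV, was at 56.7, 54.4, 64.4, 53.02 and 69.04 normalised CPM in controls and 73.5, 66.6, 118 and 52.2 in diabetic libraries. On the log2 scale Ndufa4 differed by 0.38 ± 0.22 (SE; adjusted p of 0.318), and 0.11 without diabetic 4. Its hypoxia-induced relative Ndufa4l2 had 0 to 8 reads per library.

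**Figure D5:**
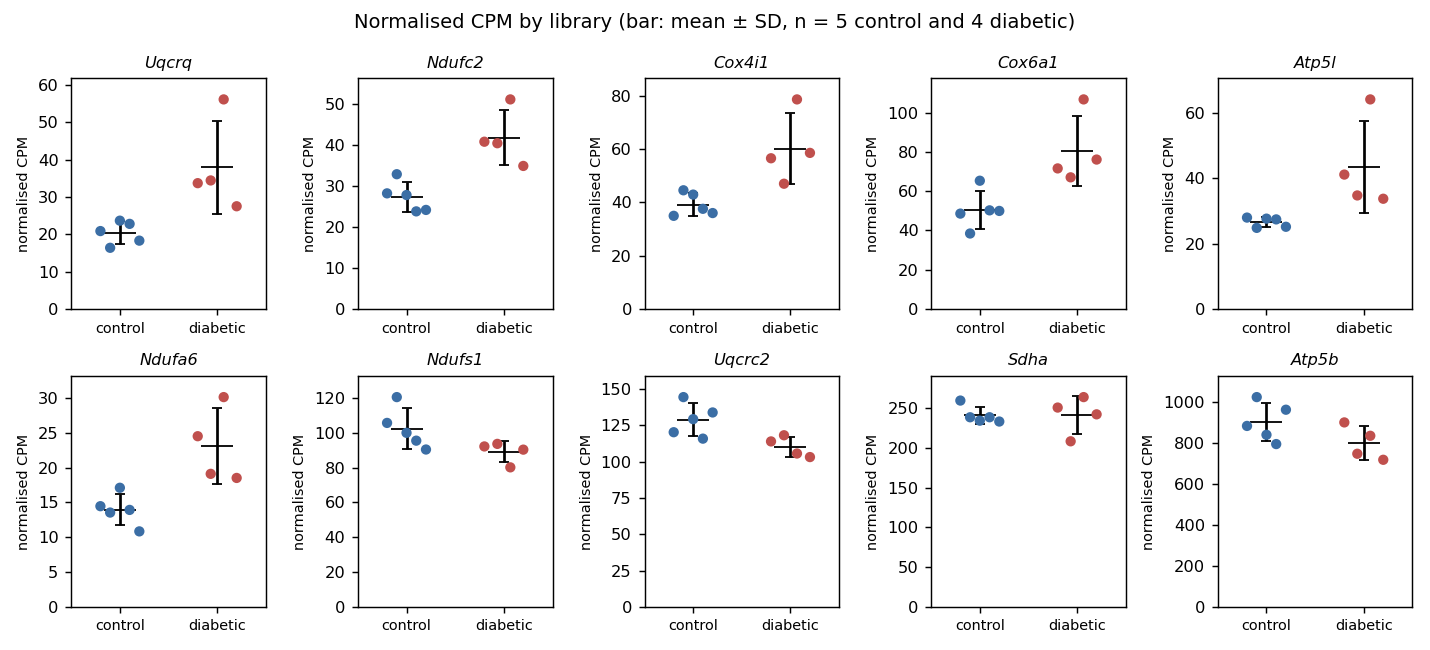
Normalised CPM in each library for 10 members, with group mean and SD (n = 5 control and 4 diabetic, y axes from 0). In the upper row and in Ndufa6 no diabetic point lies within the control range, in Ndufs1, Uqcrc2 and Atp5b the diabetic mean is the lower, and in Sdha the groups overlap.

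Complex V combines the catalytic F1 head with the membrane-bound Fo part. Of 16 nuclear-encoded genes tested, 11 had positive log2 fold changes, 8 of them at an unadjusted p below 0.05 (8.94% of all genes tested), with a median of 0.30, and 0.16 without diabetic 4. The 16 include Atp5s and Atp5sl, which are assembly factors kept here by symbol and not subunits, so these values do not describe the subunits alone. In 4 genes every diabetic library exceeded every control, as in 4.27% of all genes tested. Atp5l, subunit g of the Fo part, was at 27.98, 24.8, 27.7, 27.4 and 25.2 normalised CPM in controls and 41.1, 34.7, 64.1 and 33.7 in diabetic libraries. The log2 ratio fitted for Atp5l was 0.70 ± 0.22 (SE; adjusted p of 0.0991), without overlap of the groups. Atp5d, subunit delta of the F1 stalk, was at 45.4, 40.98, 44.9, 42.1 and 44.7 normalised CPM in controls and 54.6, 48.3, 77.5 and 67.97 in diabetic libraries. Atp5d had a fitted log2 ratio of 0.51 ± 0.17 (SE; adjusted p of 0.102), also without overlap. The 3 genes Atp5g1, Atp5g2 and Atp5g3 encode the same c-ring protein with different import sequences. Their log2 fold changes were 0.40 ± 0.16 (SE; adjusted p of 0.155), 0.33 ± 0.15 (SE; adjusted p of 0.216) and 0.42 ± 0.18 (SE; adjusted p of 0.186), with 4, 2 and 3 of the 4 diabetic libraries above all controls.

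Atp5b, the catalytic beta subunit (chromosome 7:2504695-2511749 on Rnor_6.0), had the most counts per kb of transcript among the nuclear-encoded genes with a known length and was at 881, 1022, 838, 793 and 960.3 normalised CPM in controls and 898, 746, 833 and 716 in diabetic libraries. edgeR put Atp5b at a log2 difference of -0.17 ± 0.11 (SE; adjusted p of 0.363), and diabetic 2 and 5 lay below all controls. Atp5c1, the gamma shaft, was at 207, 232, 182, 174 and 198 normalised CPM in controls and 214, 192, 205 and 179 in diabetic libraries. For Atp5c1 the fitted log2 fold change came to -0.01 ± 0.10 (SE; adjusted p of 0.976). Atp5a1, the alpha subunit, named after its values were seen, was at a log2 fold change of -0.10 ± 0.11 (SE). Atp5e, the small epsilon subunit of the F1 stalk, also named after its values were seen, was at 20.9, 14.1, 20.9, 14.997 and 13.4 normalised CPM in controls and 32.9, 22.7, 37.8 and 21.8 in diabetic libraries. Its groups did not overlap, and the fitted log2 ratio was 0.77 ± 0.26 (SE; adjusted p of 0.105). Atp5s, an assembly factor rather than a subunit, was at 9.64, 9.64, 7.53, 8.14 and 8.52 normalised CPM in controls and 8.11, 5.82, 9.41 and 6.81 in diabetic libraries. On the log2 scale Atp5s differed by -0.21 ± 0.20 (SE; adjusted p of 0.545). Atp5f1, which encodes the peripheral stalk subunit b, had 0 to 10 reads per library and was not tested, although a working ATP synthase contains that subunit.

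Of the 12 rows that could not be tested, 7 were at 0 counts in all 9 libraries, namely Mt-nd4, Ndufa1, Cox7b2, Cox8b, Cox8c, Cox6c1 and Ndufb4l1. Ndufa1 encodes a complex I subunit that is needed in every cell with a working complex, so its 0 is listed as deposited and no level is read from it. The other 5 were Ndufa4l2, Ndufaf2, Cox6a2, Atp5f1 and Ndufv3-ps1, with at most 13 reads in any library. Small respiratory chain genes have processed copies in mammalian genomes, and how the authors counted reads shared with such copies is not stated in the labels. The reference transcripts named Uqcr10 (192 bases, chromosome 15 on Rnor_6.0), Cox6b1 (261 bases, chromosome 2), Cox7a2 (252 bases, chromosome 14) and Ndufa13 (429 bases, chromosome 7) lie on other chromosomes than the RefSeq genes of these names on GRCr8 (chromosomes 14, 1, 8 and 16). Reads of these 4 genes and of near-identical copies cannot be told apart, and their counts and levels per kb are uncertain. Atp5hl1, the 1 copy symbol with enough reads, was at a log2 difference of 0.33 ± 0.35 (SE; adjusted p of 0.604).

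Genes of the pathway outside the rule were read from lists that had been written down by function. None of these lists had a gene at an adjusted p below 0.05 in edgeR's test, where 0.0681% of all genes had one. The mitochondrial ribosome, which translates the mtDNA-encoded transcripts, had 71 Mrpl and Mrps genes tested, of which 58 had positive log2 fold changes, 24 at an unadjusted p below 0.05 higher and 1 lower, with a median of 0.23. Mrpl33 had a fitted log2 ratio of 1.30 ± 0.41 (SE; adjusted p of 0.0991), and Mrps27 had a fitted log2 ratio of -0.30 ± 0.13 (SE; adjusted p of 0.205). Of 31 assembly factors of complexes I to V, 23 were positive, 5 at an unadjusted p below 0.05 higher and 1 lower, with a median of 0.16. Coa3, an early factor of complex IV assembly, had a fitted log2 ratio of 0.59 ± 0.21 (SE; adjusted p of 0.124), and Coa5 had a fitted log2 ratio of -0.24 ± 0.11 (SE; adjusted p of 0.197). Among 13 genes of the electron carriers and coenzyme Q synthesis, 8 were positive, with 2 above and 1 below control at an unadjusted p under 0.05 and a median of 0.03. Coq7, a hydroxylase of that synthesis, had a fitted log2 ratio of 0.46 ± 0.19 (SE; adjusted p of 0.169), and cytochrome c itself, Cycs, had a fitted log2 ratio of -0.44 ± 0.21 (SE; adjusted p of 0.238). Atpif1, the inhibitor of ATP synthase reversal, had a fitted log2 ratio of 0.41 ± 0.21 (SE; adjusted p of 0.266).

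The machinery that copies and transcribes mtDNA was near the centre of all genes, with 9 of 14 positive and a median of 0.08. At an unadjusted p under 0.05, 1 was above and 1 below control (8.94% and 10.0% of all genes tested). The lower one was Lrpprc, which stabilises mitochondrial transcripts, with a fitted log2 ratio of -0.39 ± 0.14 (SE; adjusted p of 0.123), and its binding partner Slirp was the higher one, with a fitted log2 ratio of 0.59 ± 0.26 (SE; adjusted p of 0.196). Of 11 regulators of the nuclear genes, 2 were positive, with a median of -0.20. At an unadjusted p below 0.05, 3 were lower (10.0% of all genes tested). Hif1a, the oxygen-regulated factor, had a fitted log2 ratio of -0.38 ± 0.14 (SE; adjusted p of 0.125), and Ppargc1b, a coactivator of mitochondrial genes, had a fitted log2 ratio of 0.75 ± 0.38 (SE; adjusted p of 0.265). The summed level of this list was 0.106% and 0.127% in control libraries 4 and 6 and 0.0623% to 0.0805% in the other 7 libraries. Control libraries 4 and 6 also held more counts on inflammatory genes, at 1.32% and 2.14% against 0.133% to 0.624% in the other libraries, and the part of these genes in the values of that list was not tested. Without both, the members' median log2 fold change was 0.40. Of 16 TCA cycle genes, 4 were positive, with a median of -0.05. At an unadjusted p below 0.05, 2 were lower (10.0% of all genes tested). Suclg2, a subunit of succinyl-CoA synthetase, had a fitted log2 ratio of -0.34 ± 0.12 (SE; adjusted p of 0.126), and Dlat, a subunit of pyruvate dehydrogenase, had a fitted log2 ratio of 0.34 ± 0.22 (SE; adjusted p of 0.367). All 7 carriers and uncoupling genes tested had negative values with 0 at an unadjusted p below 0.05 and a median of -0.17, among them Ucp2, an inner membrane carrier, with a fitted log2 ratio of -0.20 ± 0.11 (SE; adjusted p of 0.285).

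Lists of markers of other cells and states are given beside the chain, with their values in each group. At an unadjusted p below 0.05, 8.94% of all genes tested were higher and 10.0% lower, and 50.3% were positive at any p. Blood and border myeloid genes held 0.044% ± 0.016 (SD, n = 5) of counts in controls and 0.094% ± 0.034 (SD, n = 4) in diabetic libraries, with 7 of 8 tested genes positive and 6 higher at an unadjusted p below 0.05. Inner retinal neuron genes held 0.013% ± 0.004 and 0.024% ± 0.012, and 6 of 12 were higher at an unadjusted p below 0.05. In diabetic libraries 1, 2, 4 and 5 the blood and border myeloid list held 0.141, 0.0631, 0.0959 and 0.0761%. The inner retinal neuron list held 0.0396, 0.0260, 0.0193 and 0.0126% in the same order. Pericyte and smooth muscle genes had 0 of 7 tested positive, with 2 lower at an unadjusted p below 0.05 and a median log2 fold change of -1.80. Their summed share was 0.0130% ± 0.0045 in controls and 0.0100% ± 0.0018 in diabetic libraries. Endothelial genes had 1 of 9 positive, with 1 lower at an unadjusted p below 0.05 and a median of -0.49. They held 0.044% ± 0.011 and 0.043% ± 0.007. Muller glia and astrocyte genes had 2 of 8 positive, with 3 lower at an unadjusted p below 0.05 and a median of -0.18. They held 1.34% ± 0.26 and 1.34% ± 0.06. In each of these lists the summed shares of the groups overlapped, so the medians do not describe the summed level. Genes of the response to cell isolation held 0.404% to 2.50% in controls and 1.19% to 1.90% in diabetic libraries, and the groups overlapped. The part of these cells and states in the members' values was not tested.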

How the data were processed

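RNA-seq of CD11b-sorted retinal cells was analysed from 5 control and 4 diabetic libraries, grouped by their titles and treatment labels. The authors deposited raw read counts per gene symbol. Reads were aligned with TopHat2 2.0.14 to Rnor_6.0 and transcripts assembled with StringTie 1.2.4, and edgeR is also named, per the submitters' processing notes; which program counted the reads, and with which strand setting, is not given in the sources used here. The authors also deposited log2 fold changes, p-values and adjusted p-values for 12069 genes. The transcript assemblies were used only for coordinates and lengths. Total counts of 6228756 to 11332823 per library set the precision, and limits given for counts of 0 cover counting error only.

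Genes were filtered with filterByExpr (minimum count 10, minimum total 15), scaled with TMM factors (0.839 to 1.07) and tested with the quasi-likelihood test of edgeR 4.0.16 in R 4.3.3, robust and without covariates, with Benjamini-Hochberg adjustment over all 11748 genes and a threshold of 0.05. The test was checked on simulated data with the same spread for every gene and planted changes larger than those of nearly all members. That check does not cover changes of the members' size. Normalised CPM was computed from library sizes after TMM scaling, means carry the SD over libraries, and the SE is the log2 fold change over the normal quantile of its p. Shares of counts used raw counts and totals without TMM factors. The common biological coefficient of variation was 0.251. No test was made over the list of members. Alternatives were DESeq2 1.42.0, limma-voom (limma 3.58.1), other scaling factors, no filter, each library left out and a replicate block. A further fit left out the mtDNA-encoded rows. Another, chosen after seeing the data, left out both controls 4 and 6. The members and lists were chosen with earlier results of these data known.

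Named members were all mtDNA-encoded genes, complex II and Cyc1, the 2 smallest p-values in each direction per nuclear group, isoform pairs, the c-subunit genes of the ATP synthase and the 2 nuclear-encoded genes with the most counts per kb in each of complexes I, III, IV and V; from each related list the smallest p in each direction was named. A length check was void, because 62.1% of members and 65.9% of tested members had a reference transcript length, below the 80% required. The labels give 1 flow cell and 1 lane for every library, so no batch could be compared. Promoters came from RefSeq (GRCr8); 60 genes matched by symbol and 15 by an older symbol.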

Additional observations from a re-analysis of the deposited data

Results flagged for a closer look

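Within 116 groups of per-library values of the named members, 5 held a library far from the others, where chance alone is set to mark about 1 in 20 groups, and 3 of the 5 were diabetic library 4. Cox6b1 was at 46.4 normalised CPM in diabetic 4 and at 24.3 to 25.1 in the other diabetic libraries. Cox8a was at 26.5 in diabetic 4 and at 14.01 to 15.7 in the others. Mt-atp8 was at 41.9 in diabetic 4 and at 5.71 to 7.51 in the others. Sdha was at 260.0 in control 1 and at 233.6 to 239.0 in the other controls. Sdhc was at 87.3 in diabetic 2 and at 107.5 to 110.9 in the other diabetic libraries.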

How the results depend on the processing

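The count of genes called over the whole table depended most on the settings. Against 8 calls at an adjusted p below 0.05, there were 31 with upper-quartile factors, 29 without normalisation factors, 42 without a filter on low counts, 4 with limma-voom, 581 with DESeq2 and 0 with controls 4 and 6 both left out. Leaving out 1 library gave 0 to 75 calls: 75 without control 1, 6 without control 6 or diabetic 5, 2 without diabetic 2, 1 without control 3 or 5, and 0 without control 4, diabetic 1 or diabetic 4. DESeq2 called 21 members and every other setting in which members were counted called 0. Members were not counted in the fit without the mtDNA-encoded rows. The median log2 fold change of the members ran from 0.24 (without diabetic 4) to 0.49 when 1 library was left out. That of the 2 mtDNA-encoded complex V genes ran from 0.64 (without diabetic 4) to 1.52, against 1.31 with all libraries. The complex II median was 0.0586 without normalisation factors, which moves the median of all genes to 0.12, as upper-quartile factors move it to 0.08.

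The replicate numbers showed no clear pairing of the samples. The deviations of same-numbered libraries correlated at 0.20, -0.11 and 0.02 for numbers 1, 4 and 5, and only control 1 correlated best with its own number. So few correlations cannot settle whether the samples were paired. With a replicate block there were 0 calls over all genes and 0 among the members, and the median of the members was 0.45.

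Over 48 named and tested members, 804 values under alternatives kept their direction and side of the threshold in 749 cases, passed the threshold in 13 (all with DESeq2) and changed sign in 42, in 9 members whose log2 fold change with all libraries was close to 0 or, for Cox6b2, small beside its SE. Without normalisation factors the log2 fold changes were 0.11 for Atp5c1, 0.089 for Ndufaf1, 0.066 for Sdhb, 0.051 for Sdhc, 0.043 for Sdhd and 0.051 for Uqcrc1. With upper-quartile factors they were 0.068 for Atp5c1, 0.053 for Ndufaf1, 0.026 for Sdhb, 0.013 for Sdhc, 0.0098 for Sdhd and 0.013 for Uqcrc1. With the replicate block they were 0.088 for Atp5c1, 0.031 for Sdhc and 0.061 for Sdhd. With limma-voom they were 0.0049 for Ndufaf1 and -0.0040 for Sdha, without the filter -0.0026 for Sdha, and with controls 4 and 6 both left out -0.036 for Sdha and -0.013 for Cyc1. With 1 library left out in turn, the log2 fold change ran from -0.051 to 0.054 for Atp5c1, from -0.11 (without diabetic 4) to 0.39 for Cox6b2, from -0.016 to 0.098 for Cyc1, from -0.14 to 0.10 for Ndufaf1, from -0.044 (without diabetic 4) to 0.067 for Sdha, from -0.11 to 0.0062 for Sdhb, from -0.095 to 0.013 for Sdhc and from -0.14 to 0.023 for Sdhd. The cause of these changes was not tested. Depth limits the members with few reads per library, among them Cox4i2, Cox6b2, Mt-nd3, Mt-nd4l and Ndufs5.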
